A study of Zea mays with 6 samples.

Results

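Isolated regions near the chromosome ends where KNOTTED1 (KN1) peaks were called in both a tassel and an ear of maize are described here. Members were chosen from 3 peak lists. Peaks of all lists that shared at least 1 bp were merged, which gave 44066 regions, and 3345 regions on chromosomes 1 to 10 held a peak of tassel replicate 2 and a peak of the ear. Of these, 3015 held no peak of tassel replicate 1, 2424 of the 3015 had no other region shared by tassel replicate 2 and ear within 10 kb, and 1434 of the 2424 had their midpoint in the first or last 20% of a chromosome. These 1434 regions are the members. The presence of peaks and the position thus chose them, from the same contrasts of ChIP with input that gave their scores, tags, folds and false discovery rates, so those values are given as descriptions and no test was made on them. With 1 ear list and 1 tassel list behind every member, and with regions that are not replicates, no p-value is given. Differences between members and other regions are therefore descriptions that were not tested.

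The study used primordia of tassels and ears of the inbred line B73, grown in the field. Anti-KN1 chromatin immunoprecipitation (ChIP) was made from tassel primordia in 2 samples and from ear primordia in 1 sample, each with its own input DNA as control, and no transgene, mutant or treatment was compared. Fixation took 10 minutes in 1% formaldehyde in every sample. Tassel replicate 2 names tassels 2 and 3 in its title, and the sources used here do not say whether plants were pooled. Chromatin fragments averaged about 400 bp in the tassel samples and 100 bp in the ear sample, and the ear libraries alone went through a gel selection, so tissue and library preparation cannot be told apart.

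KN1 is a homeodomain transcription factor of the KNOX class, which is found in the meristems of the shoot and keeps their cells from differentiating. Plants that lack it make sparse inflorescences, and KNOX proteins bind DNA together with partner proteins of the BELL class. In maize, KN1 is known to act on genes of hormone pathways, among them a gibberellin-degrading enzyme. Maize chromosomes carry most of their genes towards the ends, while the interiors are rich in retrotransposons. No build is named for the coordinates in the sources used here, so positions are printed as the lists give them, and genes or sequences beside the members were not analysed here.

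Members made up 9.63% of the peaks and 11.5% of the tags in peaks of tassel replicate 2, and 6.05% of the peaks and 13.4% of the tags in peaks of the ear list. A tag is a sequenced ChIP fragment end counted in a peak. Of the 1434 members, 1374 consisted of a single peak of each list, 59 held more than 1 ear peak and 3 held 2 peaks of tassel replicate 2. In regions with several peaks, the best scoring peak of each list stands for the region. Most members were therefore simple sites, with 1 peak from each tissue, and had a median merged width of 846 bp (quartiles 664 to 1095 bp).

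Isolated shared regions thinned out from the chromosome ends inwards. The members lay a median of 17.2 Mb from their end (quartiles 8.48 to 28.0 Mb), and the farthest lay 60.1 Mb from it, so near the end is meant relative to the chromosome's length. Their density was 2.09 per Mb in the outermost 4% of chromosome length at either end, 1.998 per Mb from 4 to 8% and 1.94 per Mb from 8 to 12%. It was 1.48 per Mb from 12 to 16% and 1.20 per Mb from 16 to 20%. Just beyond the limit of the members, from 20 to 24%, it was 1.17 per Mb, and it was 0.431 per Mb from 44 to 48% and 0.437 per Mb in the middle, from 48 to 50%. The limit of 20% therefore divides a gradient and does not mark a step in it.

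All KN1 peaks were denser near the ends, and regions shared by tassel replicate 2 and ear more so, isolated or not. The outer parts held 1.74 members per Mb, against 0.802 isolated shared regions per Mb in the interiors, a ratio of 2.17. The same ratio was 1.55 for all ear peaks, 1.55 for all tassel replicate 2 peaks and 1.28 for all tassel replicate 1 peaks. For all regions shared by tassel replicate 2 and ear, clustered ones and those with tassel replicate 1 included, it was 2.36. A shared region needs a peak of each list, so its ratio depends on the densities of both lists together. Whether shared regions were denser near the ends than both densities give was not tested, and numbers per 100 peaks of 1 list carry the same limit. Set against the peaks around them, there were 11.4 members per 100 ear peaks and 18.9 per 100 tassel replicate 2 peaks in the outer parts, and 8.15 and 13.5 isolated shared regions per 100 peaks in the interiors. Within the gradient, the number per 100 ear peaks was highest from 8 to 12% of the length, at 12.9, and lowest in the middle, at 5.16. The density was higher in the outer parts than in the interior on 10 of 10 chromosomes, but on chromosome 4 the values were close, at 0.984 and 0.973 per Mb. Sequence to which no read could be assigned was not accounted for, and its part in these densities was not tested.

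**Figure D1:**
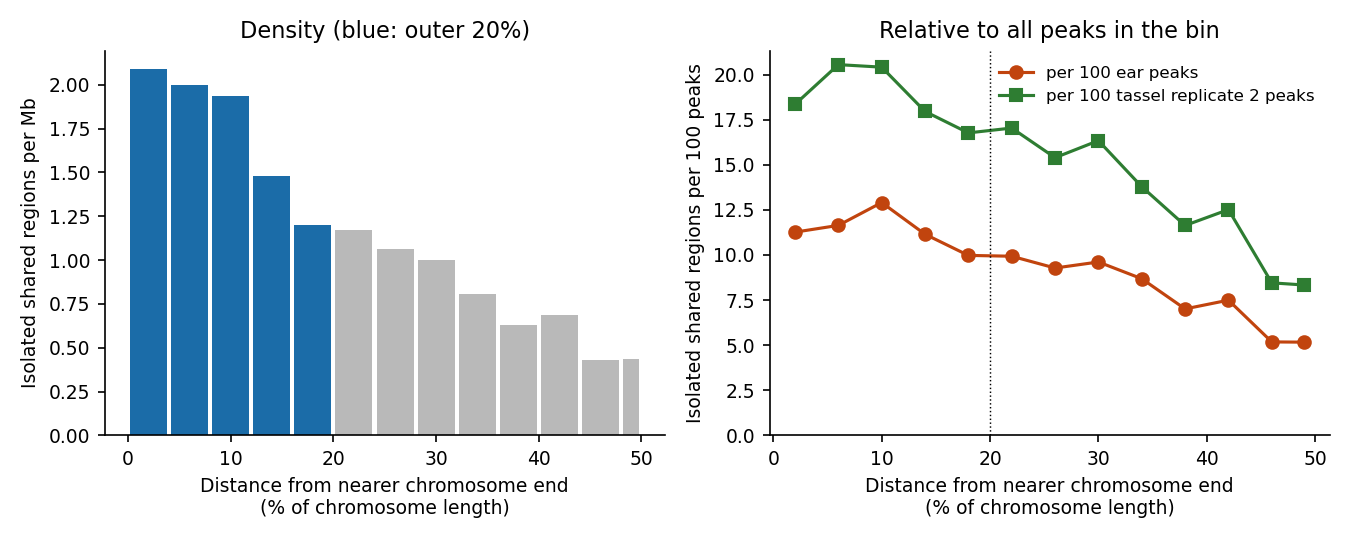
Isolated regions shared by tassel replicate 2 and ear without tassel replicate 1, by distance of the midpoint from the nearer chromosome end in percent of chromosome length. The left panel gives regions per Mb in each bin, with members in blue, falling from 2.09 to 0.437; the right panel gives regions per 100 ear peaks (circles) and per 100 tassel replicate 2 peaks (squares), with the 20% limit dotted.

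The 20 chromosome ends differed widely in how many members they carried. The last ends, at the higher coordinates, held 820 members and the first ends 614, and 8 of 10 chromosomes had more members in the last end. The widest gap was on chromosome 6, with 25 members in the first end (0.739 per Mb) and 94 in the last end (2.78 per Mb), which were the lowest and the highest density of any end. Chromosome 7 showed the same imbalance, with 27 members (0.764 per Mb) and 91 members (2.57 per Mb). On chromosomes 1 and 2 the first end held more, at 122 against 103 members and 98 against 83.

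The poor ends were also poor in peaks of single lists. The first end of chromosome 6 had 9.64 ear peaks per Mb, the lowest of the 20 ends, and 5.26 tassel replicate 2 peaks per Mb, against 19.8 and 11.4 in its last end. The first end held 7.67 members per 100 ear peaks and the last end 14.1. A member also needs a tassel replicate 2 peak, so a number per 100 ear peaks does not take out peak density. On chromosome 4 both ends were poor in members. Its first and last ends held 46 and 49 members, at 0.953 and 1.01 per Mb. They had 8.30 and 7.36 members per 100 ear peaks, where all ends together had 11.4. The first end of chromosome 7 had 6.85, the lowest of the 20 ends. Tags of members in the sparse ends were mixed. The 25 members of the first end of chromosome 6 had a median of 10 ear tags, the lowest of the 20 ends. Their median in tassel replicate 2 was 11 tags, and the 94 members of the last end had 16.5 and 11. Medians were 13 and 10 in the first end of chromosome 7, and 15 and 10 in both ends of chromosome 4.

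**Figure D2:**
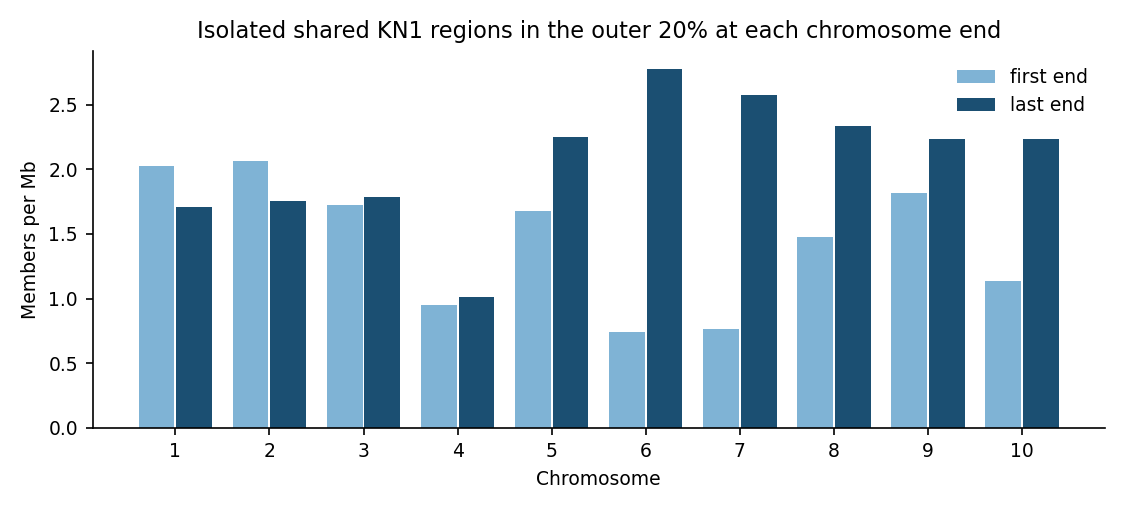
Members per Mb in the first and last 20% of each chromosome. Bars are counts divided by the length of that end; the first ends of chromosomes 6 and 7 lie at 0.739 and 0.764 per Mb and their last ends at 2.78 and 2.57.

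Most members had some other KN1 peak in their neighbourhood, although no second region shared by tassel replicate 2 and ear lay within 10 kb. Some other region of any list lay within 10 kb of 994 members (69.3%, 95% interval 66.9 to 71.7) and within 1 kb of 319 (22.2%, 20.2 to 24.5), while 440 members (30.7%, 28.4 to 33.1) had none within 10 kb. An ear peak without tassel replicate 2 lay within 10 kb of 50.5% of members (47.9 to 53.1), and a tassel replicate 2 peak without ear within 10 kb of 28.5% (26.2 to 30.8). In interior isolated regions the shares were 56.4% (53.3 to 59.4) for any region, 40.9% (37.9 to 44.0) for the ear and 20.9% (18.5 to 23.6) for tassel replicate 2. Neighbours were thus more frequent around members than in the interior, where all peaks are sparser. Intervals on shares are 95% Wilson intervals and cover counting error over regions only.

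Tassel replicate 1 was required to have no peak in a member, and in most cases it had none close by either. The nearest of its peaks lay a median of 60296 bp from a member (quartiles 17802 to 132804 bp). It lay within 10 kb of 266 members (18.5%, 16.6 to 20.6), against 12.3% (10.4 to 14.5) of interior isolated regions. Within 1 kb there were 51 members (3.56%, 2.72 to 4.65) and 14 interior regions (1.41%, 0.844 to 2.36). Its peaks were 1.28 times denser in the outer parts than inside, and the ratio of these shares within 10 kb is to be read beside that.

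Members stood apart from each other at very different distances. The next region shared by tassel replicate 2 and ear lay a median of 131615 bp away (quartiles 53326 to 280388 bp), against 214407 bp (90653 to 539066 bp) around interior isolated regions. For 126 members it lay between 10 and 20 kb away, and for 30 it lay over 1 Mb away. Of the outer shared regions without tassel replicate 1, 22.8% (21.0 to 24.8) had a neighbour within 10 kb and were no members, against 14.4% (12.5 to 16.6) in the interiors. At the 10 kb limit, the members chr1:298983668-298984386 and chr3:4545516-4546277 had neighbours 10058 and 10059 bp away and held 22 and 19 ear tags. The nearest regions left out, chr2:2101427-2102089 and chr2:2111972-2112519, lay 9882 bp from each other with 9 and 6 ear tags. At the 20% limit, chr9:125340307-125340995 and chr2:47365483-47366087 were the innermost members, with 4 and 11 ear tags and 6 and 8 tassel replicate 2 tags. Just inside the interior lay chr5:174156147-174157053 and chr5:43657858-43658996, with 40 and 13 ear tags and 10 and 7 tassel replicate 2 tags.

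In the strength of their peaks, members resembled interior isolated regions. The median member held 15 tags in the ear (quartiles 8 to 26, range 4 to 141) and 10 in tassel replicate 2 (7 to 16, range 4 to 123). Interior isolated regions held a median of 14 ear tags (8 to 26) and 10 tassel replicate 2 tags (7 to 16). The 424 clustered shared regions near the ends held 16 (10 to 27.2) and 10 (6 to 17). The difference in medians between members and interior isolated regions was 1 tag in the ear and 0 in tassel replicate 2, which is small beside the quartiles of either group. By chromosome the direction was mixed: the ear median was higher in members on 6 chromosomes, equal on 1 and lower on 3, and the tassel replicate 2 median was higher on 2, equal on 5 and lower on 3.

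**Figure D3:**
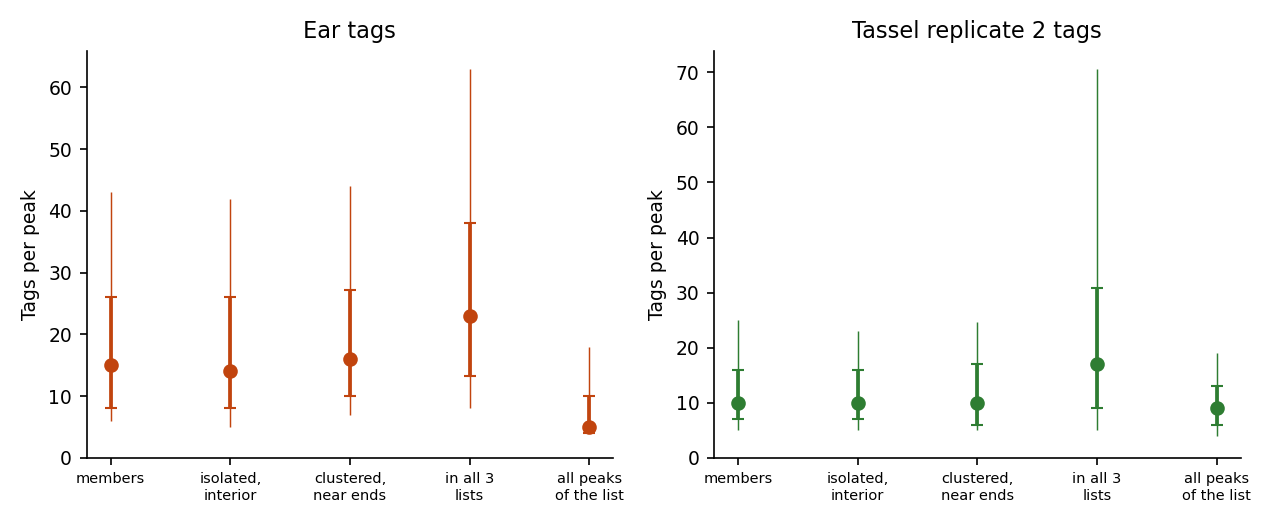
Tags per peak in the ear list (left) and the tassel replicate 2 list (right) for members, interior isolated regions, clustered regions near the ends, regions in all 3 lists and all peaks of the list. Points are medians, capped bars quartiles and thin lines the 10th to 90th percentile over regions; members have medians of 15 and 10 tags and interior isolated regions of 14 and 10.

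Among all peaks of their own list, members ranked high in the ear and near the middle in tassel replicate 2. The score of a peak is -10 times the log10 of the peak caller's p-value. An ear peak with a score in the top 20% of its list was found in 783 members (54.6%, 52.0 to 57.2), where 20.2% of all ear peaks lie there. In tassel replicate 2 the top 20% held 235 members (16.4%, 14.6 to 18.4), against 20% of all its peaks. The median member stood at the 86.4th percentile of ear tags and the 59.3rd of tassel replicate 2 tags. Interior isolated regions stood at 85.1 and 59.3, so this contrast between the lists was not seen in members alone. A score of at least 100 was carried by 855 members in the ear (59.6%), against 25.1% of all ear peaks. In tassel replicate 2 it was carried by 1244 (86.8%), against 89.8% of all peaks there.

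The false discovery rate (FDR) of the lists is a percentage read as the peak caller's estimate from exchanging ChIP and input. An ear FDR of at most 20% was reached by 45 members (3.14%, 2.35 to 4.17), where 0.566% of all ear peaks reach it, and by 25 interior isolated regions (2.53%, 1.72 to 3.70). An ear FDR below 100% was carried by 257 members (17.9%, 16.02 to 19.99), against 3.84% of all ear peaks. The remaining 1177 members (82.1%) carried an ear FDR of 100%, which means that exchanging ChIP and input gave no fewer peaks at that score. In tassel replicate 2, 1345 members (93.8%) had an FDR of at most 5%, against 95.6% of all its peaks. By this column, most members thus rested on an ear peak that was not separated from input, and their ear values carry that limit. Whether ChIP and input of the ear held their proper roles in peak calling was not tested, and an exchange would alter the meaning of every ear tag count, score and rank given here.

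The 45 members at an ear FDR of at most 20% all held many ear tags, and 44 of them were among the 99 members with at least 50. Their ear peaks stood at ranks 5 to 141 by score, so many ear tags come with the choice by FDR. The 45 members lay on all 10 chromosomes and held 44 to 141 ear tags (median 85) and 5 to 123 tassel replicate 2 tags (median 25). In 42 of the 45 the tassel replicate 2 peak was wider than 500 bp, and the summits of both lists lay a median of 51 bp apart. In tassel replicate 2, 10 of them (22.2%, 12.5 to 36.3) were among the best 1000 peaks, where 6.7% of all its peaks and 67 of the 1434 members (4.67%, 3.70 to 5.89) lie. The share was thus higher in this set than among all members, and most of the set ranked below 1000.

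Peaks of tassel replicate 2 wider than 500 bp, the smallest width in that list, were found in 777 members (54.2%, 51.6 to 56.8), where 19.7% of all its peaks are wider. Interior isolated regions had such a peak in 51.8% (48.7 to 54.9) and clustered regions near the ends in 59.7% (54.9 to 64.2). The share was higher where the ear peak held more tags. It was 28.5% (24.4 to 33.1) in the 417 members of 4 to 9 ear tags, 51.7% (47.3 to 56.1) in the 491 of 10 to 19, 73.1% (68.7 to 77.1) in the 427 of 20 to 49 and 92.9% (86.1 to 96.5) in the 99 of 50 or more. Width in the tassel and tags in the ear thus went together over members, in lists made from separate libraries. The rule of 1 shared bp favours wide peaks, so comparisons of members with all peaks of a list carry that limit. Ear peaks with more tags were also wider, with a median of 306 bp at 4 to 9 ear tags and 1103 bp at 50 or more. The part of width in these shares was not tested. Of all ear peaks, 1.26% held at least 50 tags, and of members 6.90% (5.70 to 8.33) did.

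The ear and tassel summits, the positions of highest signal, lay a median of 153 bp apart in members (quartiles 63 to 256 bp). A tassel replicate 2 peak of exactly 500 bp has its summit at its centre by construction, so the distance carries most where that peak is wider. In the 777 members with a wider peak, the median was 118 bp (46 to 248 bp), and in the 513 such interior regions it was 104 bp (45 to 217 bp). These quartiles overlap almost wholly. Summits at most 50 bp apart were found in 214 of the 777 members (27.5%, 24.5 to 30.8) and in 141 of the 513 interior regions (27.5%, 23.8 to 31.5).

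Summits came closer as ear tags rose. In members with a wider tassel peak, the median distance was 194 bp at 4 to 9 ear tags, 132 bp at 10 to 19, 93.5 bp at 20 to 49 and 63.5 bp at 50 or more. The spread stayed wide even among the richest, with quartiles of 29.8 to 233 bp. The ear and tassel peaks shared a median of 412 bp (253 to 549 bp), or 91.8% of the shorter peak. The ear peak lay wholly inside the tassel peak in 379 members (26.4%), and the tassel peak lay wholly inside the ear peak in 173 (12.1%). In 202 members (14.1%, 12.4 to 15.98) less than 50% of the shorter peak was shared. These were 153 of the 657 members with a tassel peak of exactly 500 bp (23.3%) and 49 of the 777 with a wider one (6.31%). Where a region held several peaks, these overlaps cover only the best peak of each list.

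**Figure D4:**
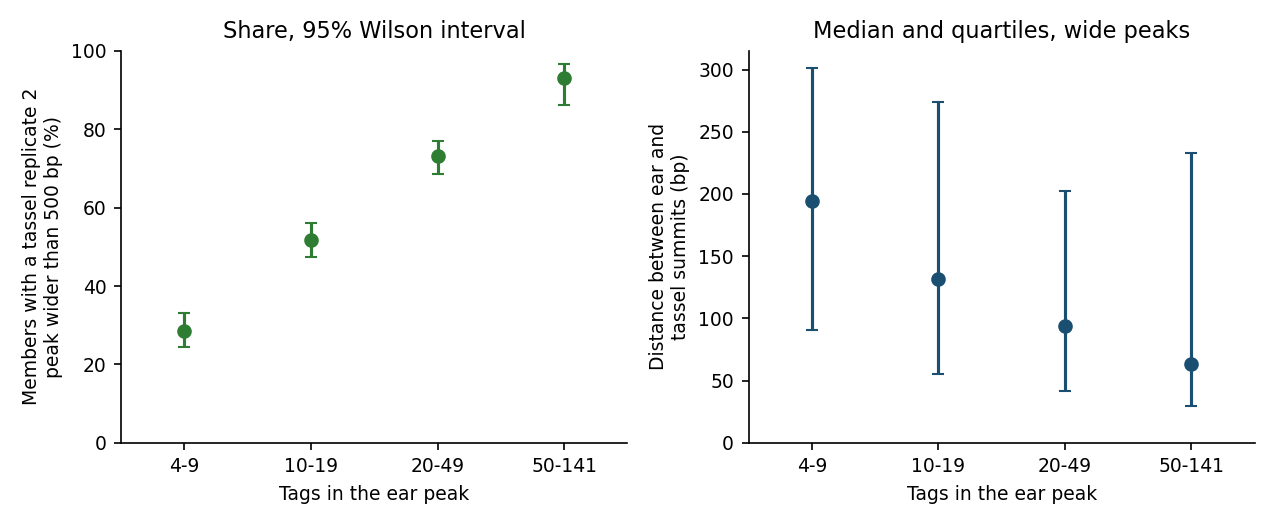
Members by the number of tags in the ear peak. The left panel gives the share with a tassel replicate 2 peak wider than 500 bp with its 95% Wilson interval, from 28.5% to 92.9%; the right panel gives, for members with such a peak, the median distance between summits in bp with quartiles, from 194 to 63.5 bp.

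Ranks of the members agreed only loosely between tissues. Spearman's rho between ear tags and tassel replicate 2 tags over the 1434 members was 0.307, and it was 0.294 over the 990 interior isolated regions. For scores it was 0.139 and for fold enrichment over the local background 0.127 in members. These values are descriptions over sites that share their 2 libraries and the rule that chose them. The agreement sat at the top of the range. Members of 4 to 6, 7 to 9 and 10 to 15 tassel replicate 2 tags had ear medians of 12, 13 and 13 tags. Those of 16 to 29 had 20 (quartiles 11 to 35), and the 84 of 30 or more had 39.5 (22.5 to 64). An ear FDR of at most 20% was carried by 0.855% (0.291 to 2.48) of the 351 members in the lowest of these groups and by 17.9% (11.1 to 27.4) of the 84 in the highest.

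Few members held at least 50 tags in both lists. In the ear 99 members held as many (6.90%, against 1.26% of all ear peaks). In tassel replicate 2, 18 did (1.26%, 0.795 to 1.98, against 0.65% of all its peaks), and 9 did in both. The limit of 50 tags was thus stricter within tassel replicate 2 than within the ear list. Fewer than 10 ear tags were held by 417 members (29.1%, 26.8 to 31.5), where 74.7% of all ear peaks hold so few. At the other extreme, 232 members (16.2%, 14.4 to 18.2) held fewer than 10 tags in each list. The tag numbers of one list are not compared with those of the other, because the depth of the libraries is unknown.

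**Figure D5:**
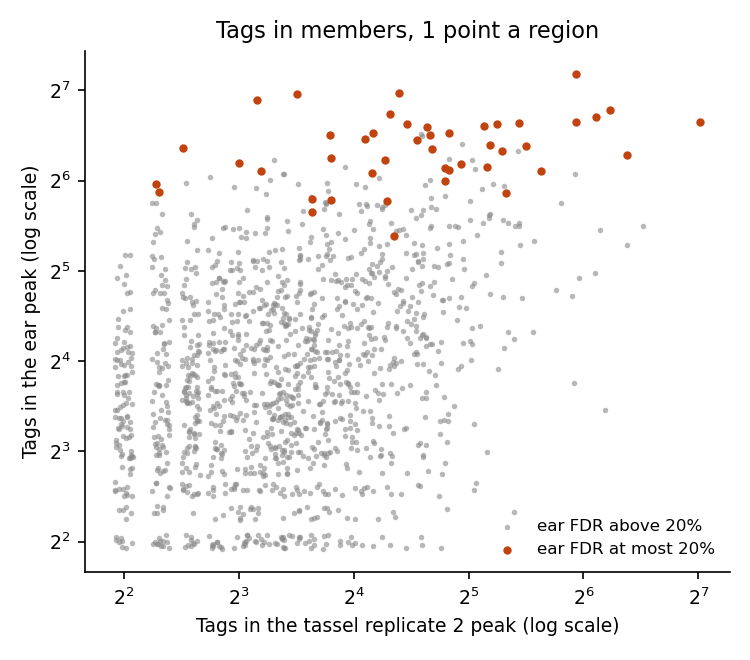
Tags of the ear peak against tags of the tassel replicate 2 peak in the 1434 members, both on log scales, with a small random shift so that equal points can be seen. The 45 members with an ear FDR of at most 20% are in orange and lie at 44 or more ear tags, spread over 5 to 123 tassel tags.

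The member with the best ranks in both lists was chr1:243698774-243701048. It held 123 tags in tassel replicate 2 (254-fold over background, rank 40 of 14918) and 106 in the ear (144-fold, rank 20 of 24737, FDR 10%). Its tassel peak, 2116 bp wide, had the most tags of any member, its summits lay 26 bp apart, and it held 2 ear peaks. It lay 19.1% of the chromosome's length from the end, close to the inner limit, with no other shared region within 710846 bp. The strongest member by these ranks was therefore among the innermost.

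The next by its worse rank was chr6:155437984-155439218, with 84 tassel replicate 2 tags (rank 73) and 82 ear tags (rank 103, FDR 11.7%), and summits 35 bp apart. A peak of tassel replicate 1 lay 1149 bp from it. It was followed by chr9:151979109-151981023, which had the most ear tags of any member, 141 at rank 5, and 64 tassel replicate 2 tags at rank 139, with summits 10 bp apart. There too a peak of tassel replicate 1 lay nearby, at 986 bp. Whether these neighbouring peaks mark the same sites as the members was not tested.

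The next 2 members by worse rank both lay on the last end of chromosome 1. At chr1:281488386-281489628 tassel replicate 2 had 45 tags (rank 214) and the ear 105 (rank 28, FDR 7.14%), with summits 2 bp apart. At chr1:281162029-281163110 the lists had 45 tags (rank 220) and 88 tags (rank 50, FDR 6%), with summits 21 bp apart. Both members thus had equal tassel tags, and both carried a low ear FDR. They were not neighbours: another shared region lay closer, 107614 bp from the first and 60017 bp from the second. The first had a 1264-fold and the second a 1008-fold enrichment in the tassel list, with 57.8-fold and 119-fold in the ear list.

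On chromosome 6, chr6:150941032-150943643 was 2612 bp wide, with 68 tassel replicate 2 tags, 110 ear tags in the better of 2 ear peaks, and an ear FDR of 8.20%. Its summits lay 220 bp apart, farther than in the other leading members. On chromosome 10, chr10:142396779-142397814 held 72 and 43 tags at ranks 219 and 383, and on chromosome 5, chr5:204266271-204267548 held 41 and 45 tags at ranks 455 and 413. Their ear FDR was 45.4% and 47.7%, well above that of the others. The remaining 2 of the first 10 were chr7:14367543-14368524, with 36 and 70 tags, and chr4:226402454-226403474, with 21 and 101 tags. Their ear FDR was 7.69% and 9.38%. The chromosome 7 site lay 1385800 bp from the next shared region, in the first end, which was poor in members.

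The best ranked members of the remaining chromosomes stood further down the lists. On chromosome 8 this was chr8:25332204-25333306, with 27 tassel replicate 2 tags and 66 ear tags, summits 12 bp apart and an ear FDR of 19.1%. On chromosome 2 it was chr2:224173543-224175967, with 41 and 26 tags at ranks 555 and 605, and on chromosome 3 chr3:3405759-3406507, with 25 and 37 tags at ranks 627 and 600. The ear FDR of these last sites was 61.0% and 61.3%, so neither reached 20%.

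Over the 100 members with the best worse rank, which reached rank 2572, tassel replicate 2 tags had a median of 27 and ear tags of 37.5. The tassel peak was wider than 500 bp in 89 of them, and the summits lay a median of 76.5 bp apart (32.5 to 184 bp). An ear FDR of 100% was still carried by 38 and one of at most 20% by 18. They lay on all 10 chromosomes. Ranks by score in both lists picked these 100 members, so high tags and scores come with the choice. Interior regions picked in the same way were not set beside them.

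Several members ranked far higher by score in the ear than in tassel replicate 2. In the ear, chr6:16290331-16291546 held 126 tags at rank 7 (FDR 14.3%), and tassel replicate 2 held 11 at rank 9576. It lay in the sparse first end of chromosome 6, 2694270 bp from the next shared region. Likewise chr1:244854821-244855833 held 126 ear tags at rank 51 (FDR 5.88%) and 22 tassel tags at rank 11338, although those tags stood at the 94.2nd percentile of their list, and chr3:3986768-3989557 held 115 ear tags at rank 22 (FDR 9.09%) and 9 tassel tags at rank 11398. The ear peak of the last of these, 2775 bp wide, was the widest ear peak of any member, and its summit lay 660 bp from the tassel summit. At chr1:273340338-273342413 both lists were rich, with 114 ear tags and 77 tassel replicate 2 tags, but the summits lay 464 bp apart.

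By percentile of tags within each list, the ear stood highest over the tassel at chr2:198096274-198097032, chr3:5993010-5994009 and chr5:206797069-206797933. They held 36, 35 and 33 ear tags, all above the 96th percentile, and 4 tassel replicate 2 tags each, the fewest in that list. Their ear FDR was 61.1%, 100% and 96.2%. The reverse held at chr4:41569653-41570590, chr7:5784275-5785603 and chr9:134565681-134566324, with 26, 24 and 24 tassel tags and 4 ear tags each at an ear FDR of 100%. A count of 4 is the lowest in either list. The scores of these peaks with 4 tags were 56.1, 111 and 63.5 in tassel replicate 2 and 79.0, 73.0 and 67.4 in the ear, in the order named, where both lists begin just above 50.

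Other members with the most tassel tags included chr7:151238701-151241186, with 89 tassel replicate 2 tags and 47 in the best of 3 ear peaks, and chr1:56070722-56071879, with 81 and 39 tags. Their ear peaks were also rich, at the 98.5th and 97.6th percentile of ear tags, but their ear FDR was 45.1% and 86.9%. The former lay 694095 bp from the nearest peak of tassel replicate 1, the longest such distance of any member. The widest member was chr1:251733257-251736276, at 3020 bp, with 68 tassel tags and 33 in the best of 3 ear peaks, at an ear FDR of 87.2%. With 4 peaks in all, these wide sites shared the highest number of any member with chr4:197990280-197992118, chr2:4209818-4212674 and chr1:9436543-9438904, the last 2 of which had 2 peaks of each list. At chr2:4209818-4212674 the summits of the best peaks lay 1843 bp apart, the greatest distance in the set, with 39 tassel and 64 ear tags.

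The outermost members lay almost at the limits of the mapped chromosomes. On the first side this was chr8:44716-45270, which began 44715 bp from the start of the chromosome, with 11 tassel replicate 2 tags and 10 ear tags. On the last side it was chr4:241362514-241363686, which ended 72817 bp before the highest peak end on that chromosome. It had 73 tassel tags at rank 39, the best tassel rank of any member, and 11 ear tags at rank 1977 with an ear FDR of 100%, and its summits lay 2 bp apart. Position near the very end and tags were not tied in general: median ear tags were 15 in each bin from the end to 16% of the length and 13 from 16 to 20%, and median tassel replicate 2 tags were 10 or 11 in these bins.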

How the data were processed

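One deposited peak list per ChIP sample was used (3 lists); inputs were not analysed here. The submitters' processing notes name CASAVA 1.4 and Bowtie. Peak names are those the caller MACS writes, per the file contents; the sources used here give neither its version, nor the aligner's settings, nor the build. The lists have no header, and columns were read in MACS's usual order. The deposited score is -10 × log10 of MACS's p-value (at least 50, a p of 1e-05). The deposited tag count is a whole number, the deposited fold enrichment is a ratio to local background, and the deposited FDR is a percent. All are the authors' values for a peak. The lists hold 87317, 165023 and 226165 tags in peaks (tassel replicates 1 and 2, ear), which limits their precision; library depth is unknown.

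Merging, classing and summaries used pandas 2.3.3, numpy 2.4.6 and scipy 1.17.1 under Python 3.11.15, and plots used matplotlib 3.10.9. Chromosome length was the highest peak end in any list. Merged regions equalled those of bedtools 2.31.1 (0 differed), and the member search was tested on simulated data. Named regions follow a fixed rule: best worse rank overall (10) and by chromosome, most tags per list (5 each), largest differences in tag percentile (3 each way), widest, most peaks, outermost and those at the limits. Ties in score were ordered by tags. The members, lists and rules were chosen with earlier results of these data known. Alternatives were the overlap, the isolation distance, the outer share, a score limit and leaving out tassel replicate 1.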

Additional observations from a re-analysis of the deposited data

Results flagged for a closer look

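Peaks on sequences other than chromosomes 1 to 10, which the rule leaves out, numbered 25 in tassel replicate 2 and 70 in the ear list, above the 3 that a count of 0 allows; 0 of the regions there held a peak of both lists.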

How the results depend on the processing

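Of 82 alternative values, 68 stayed inside the reported value's 95% interval (counts: inside a factor of 1.5) and 14 did not. Some of the 14 follow from the setting itself, such as fewer members in a narrower outer part. For the others the cause was not tested. The number of members (1434) became 847 with the outer 10% at each end, 895 with a score of at least 100 in every list, 320 with ear peaks at an FDR below 100% and 858 with tassel replicate 2 peaks wider than 500 bp; the latter pair of settings was chosen after the data were seen. Of the 320 and 858 regions, 251 and 776 were members with the same borders. With a score of at least 100, median ear tags were 24 and median tassel replicate 2 tags 13. The share of wide tassel peaks was then 68.0% and the median summit distance 132 bp. An ear FDR of at most 20% was carried by 5.47% (3.14% as reported), and an ear score in the top 20% of the list by 91.4% (54.6%). That top 20% began at a score of 111.3, so the limit of 100 nearly fixes the latter share. Tags and FDR go with the score, so their shifts carry the same limit. With an overlap of at least 50% of the shorter peak, the share of wide tassel peaks was 59.3% and the median summit distance 127 bp. Under that setting 58.4% had an ear score in the top 20% of the list. Without tassel replicate 1, there were 1586 regions with a median of 16 ear tags, 10 tassel replicate 2 tags, 55.7% wide tassel peaks, a summit distance of 150 bp, and differences in median tags from the interior of 2 in the ear and 0 in tassel replicate 2. A tassel replicate 1 peak lay in or within 10 kb of 26.4% of them (18.5% as reported), since regions holding one were no longer left out. Without tassel replicate 2 or the ear there are no members. No paired analysis was possible because tassel and ear ChIP share only 1 replicate number and the result comes from no test.

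The ear list limits most statements: 1177 members carried an ear FDR of 100%. Depth is unknown, so a missing tassel replicate 1 peak was not shown to be absence of KN1.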
